A study of Oryza sativa with 30 samples.

Results

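Ribonucleotide reductase was followed at the transcript level in rice (Oryza sativa) leaves. The members were the genes whose description in the deposited table of untreated ATM, atm-1, TOP6A3, top6a3 and atr leaves names a ribonucleoside-diphosphate reductase, and 5 of the 38978 genes listed there met this rule. ST1 (Os06g0257450, chromosome 6, 8230555 to 8232480, minus strand) and RNRS2 (Os06g0127900, chromosome 6, 1470865 to 1472378, plus strand) encode small subunits. V3 (Os06g0168600, chromosome 6, 3449701 to 3454747, minus strand), RNRL2 (Os02g0804900, chromosome 2, 34327974 to 34333015, plus strand) and Os02g0804933 (chromosome 2, 34328237 to 34333069, minus strand) are described as large subunits. The last of these is annotated as a coding sequence that is not translated. The genome build of these coordinates is not given in the sources used here.

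Ribonucleotide reductase converts ribonucleotides to deoxyribonucleotides and sets the pace of the supply of DNA precursors for replication and repair. The large subunit carries the catalytic and regulatory sites, the small subunit holds the radical that starts the reaction, and an active enzyme needs both. Rice mutants of the V3 and ST1 genes were named for their virescent and striped leaves, in which chloroplasts of growing leaves fail to develop fully.

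Leaf RNA of 14-day-old seedlings, raised in test tubes at 26 °C according to the treatment protocol, was sequenced in 30 libraries of 16 groups. Untreated leaves came from WT (DJ) and the ku70 mutant (2 libraries each), from WT (ATM), the atm-1 mutant and the top6a3 mutant (3 each), and from WT (TOP6A3) and the atr mutant (1 each). Leaves irradiated with 60Co gamma rays were taken 6 h later, after 70 Gy from ATM and atm-1 (3 each) and atr (1), and after 40 Gy from DJ and ku70 (2 each), the overexpression line TOP6A3-OE1 (1) and TOP6A3-OE1 atm, which carries the atm-2 mutation (1). Leaves kept at 4 °C for 24 h came from ATM and atm-1 (1 each). ATM and ATR are kinases that signal DNA damage, KU70 binds broken DNA ends, and TOP6A3 is a subunit of topoisomerase VI. How the mutant alleles and the overexpression line were made is not given in the sources used here, nor is the number of plants behind a library.

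Values were the FPKM deposited by the authors, which set the reads of a gene against its length and the library's depth. Treated and untreated libraries were deposited in separate tables, so the table and the treatment cannot be told apart. Tables listing the same genes were joined into 1 set of 20 libraries (ATM, atm-1, TOP6A3, top6a3 and atr) and 1 set of 10 (DJ, ku70 and TOP6A3-OE1), and each set was tested alone. Library depth was 10364355 to 16477147 recovered reads. A pair of libraries stood apart by how few genes had low read numbers: the share of detected genes with 1 to 10 reads was 1.53% for replicate 1 of the atm-1 control and 1.70% for replicate 3 of ATM at 70 Gy. It was 10.8% to 21.8% among the remaining 18 libraries of the set and 1.22% to 20.8% in the set of 10. Of 6039 genes at 10 FPKM or more in all of those 18 libraries, 4.24% and 4.14% were listed at 0 in the libraries labelled ku70 40 Gy, against 0.149% to 1.04% in the other 8 libraries of the set of 10. The genes of the line labels did not all follow them. KU70 was higher in the libraries labelled ku70 control (24.7 and 37.8 FPKM) than in the DJ controls (0.319 and 5.31 FPKM). TOP6A3 stood at 1899 FPKM in the library labelled TOP6A3, at 3.57 to 4.03 FPKM in top6a3 and at 4.49 FPKM in TOP6A3-OE1, the line labelled as its overexpressor. The ATM transcript stood at 0.850 FPKM in replicate 1 of the atm-1 control and at 4.54 and 5.23 FPKM in the other replicates. In untreated ATM leaves it ranged from 4.12 to 6.19 FPKM. ATR stood at 0.206 FPKM in untreated and at 1.12 FPKM in irradiated atr leaves. It ranged from 1.95 to 3.13 FPKM in untreated and from 1.45 to 4.33 FPKM in irradiated ATM leaves. In top6a3 ATR ranged from 1.11 to 1.94 FPKM. Markers of the leaf mesophyll, the small chain of Rubisco and the chlorophyll a-b binding proteins, summed to between 1864 FPKM (atr 70 Gy) and 76230 FPKM (TOP6A3-OE1 atm 40 Gy).

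Irradiation of ATM leaves with 70 Gy raised all 3 of the members that could be tested, both small subunits and the large subunit V3. ST1, the more abundant small subunit, stood at 39.1, 25.0 and 26.5 FPKM in the untreated libraries and at 2067, 1953 and 795 FPKM after irradiation. The groups were far apart, with a mean 53.2-fold higher after irradiation, and 56365 reads of ST1 in ATM 70 Gy replicate 2 alone. RNRS2, the other small subunit, stood at 1.05, 2.67 and 1.23 FPKM untreated and at 300, 325 and 63.4 FPKM irradiated. Its mean was 139-fold higher, from a control level that rested on 24 to 52 reads per library. V3, the large subunit, stood at 5.46, 5.14 and 4.55 FPKM untreated and at 80.7, 56.2 and 27.4 FPKM irradiated, a mean 10.8-fold higher. Replicate 3, the irradiated library with few genes of low read number, was the lowest of the irradiated libraries for each gene, and none of the 3 genes had overlapping groups. How many of all genes had groups without overlap was not counted, here or in the comparisons below, so this adds nothing to the tests. In RNA of whole leaves, a change in the number of cells of a type and a change in RNA per cell cannot be told apart.

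Tested on log2(FPKM + 1) with limma, with p-values adjusted over all 24582 genes tested, ST1 rose by 5.59 ± 0.33 (SE, n = 3 and 3, adjusted p = 5.78e-06), RNRS2 by 6.18 ± 0.74 (adjusted p = 0.00165) and V3 by 3.08 ± 0.34 (adjusted p = 0.000752). Across all genes tested, 0.431% were called higher and 0.0936% lower in this comparison at an adjusted p under 0.05. Ordered by the size of the rise, RNRS2 was number 2, ST1 number 4 and V3 number 30 of the 24582 genes. All 3 calls held when any 1 of the 6 libraries was left out (highest adjusted p = 0.0136, for RNRS2).

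**Figure D1:**
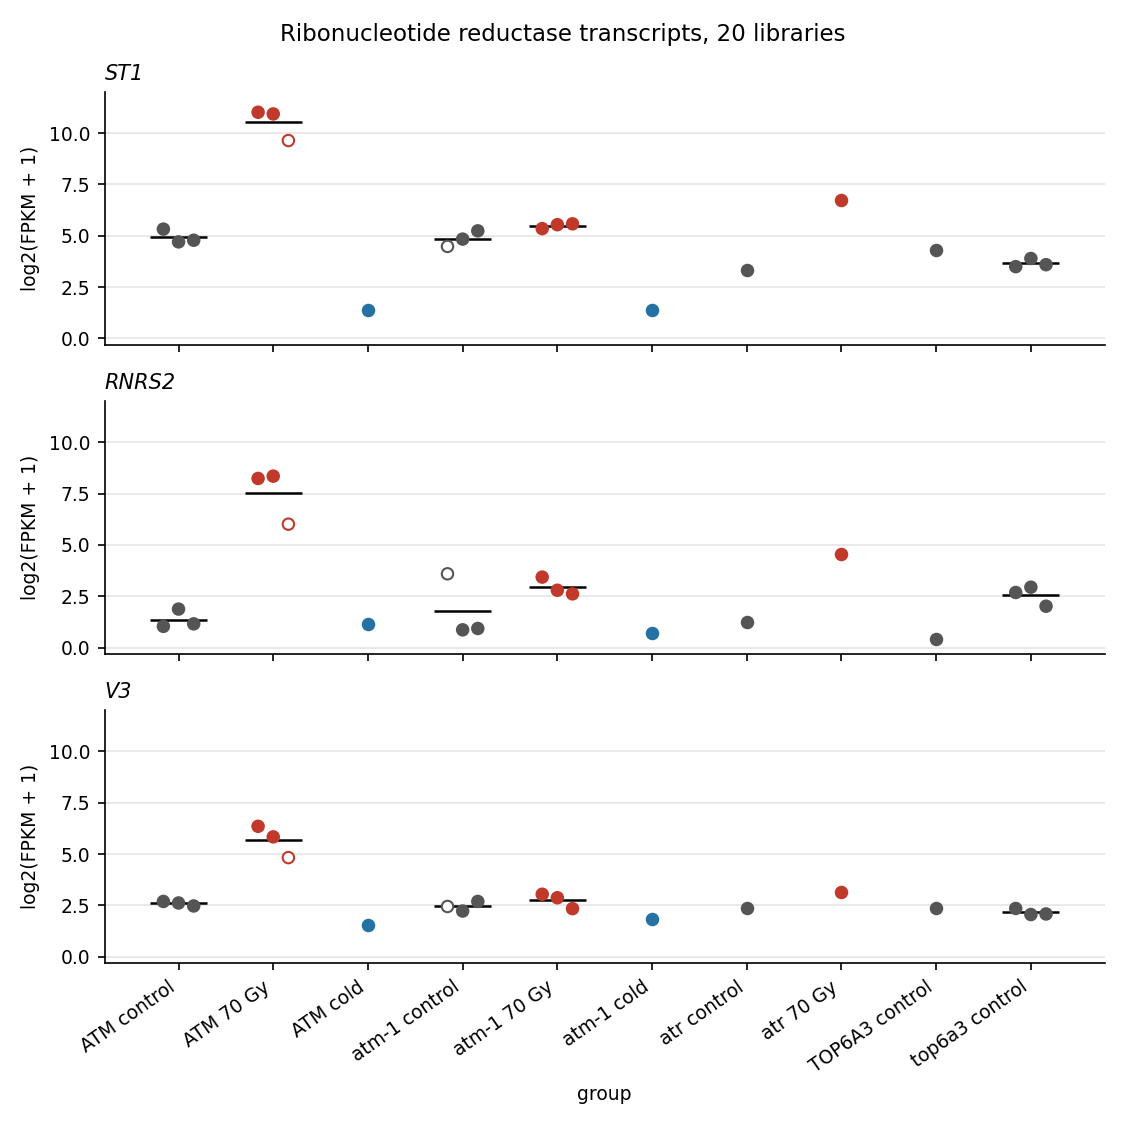
FPKM of ST1, RNRS2 and V3 on a log2(FPKM + 1) axis in 20 libraries by group; each point is 1 library, bars are group means, red is 70 Gy, blue is cold, grey is untreated, and open points are atm-1 control replicate 1 and ATM 70 Gy replicate 3. The irradiated ATM libraries stand above all others for each gene, at 795 FPKM or more for ST1.

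In atm-1 leaves none of the members was called after the same dose. ST1 stood at 21.3, 27.6 and 36.8 FPKM untreated and at 39.7, 45.5 and 46.9 FPKM after 70 Gy. The irradiated libraries all lay above the untreated ones, by 1.54-fold in the means, and the difference of 0.64 on the log2 scale had a 95% confidence interval of -0.09 to 1.36 (limma adjusted p = 0.685). RNRS2 stood at 11.1, 0.821 and 0.906 FPKM untreated and at 9.80, 5.93 and 5.13 FPKM irradiated. Its groups overlapped through atm-1 control replicate 1 alone, the library with few genes of low read number, and the log2 difference was 1.15 with that library (adjusted p = 0.712) and 2.05 without it (adjusted p = 0.275). V3 stood at 4.45, 3.68 and 5.47 FPKM untreated and at 7.24, 6.32 and 4.07 FPKM irradiated, with overlapping groups (log2 difference 0.30, interval -0.43 to 1.03). Among all genes tested 0% were called in either direction in this comparison, and 1877 had an unadjusted p under 0.05. With libraries weighted by their estimated quality, limma called ST1 (0.62, adjusted p = 0.0366) and RNRS2 (2.02, adjusted p = 0.00537) higher in irradiated atm-1 leaves as well, along with 2649 genes in all.

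The difference between the responses of both lines was tested directly. The 70 Gy response of ST1 differed in atm-1 from that in ATM by -4.95 ± 0.47 on the log2 scale (SE, limma adjusted p = 0.000663), and that of V3 by -2.78 ± 0.48 (adjusted p = 0.0482). For RNRS2 the estimate was as large, -5.02 ± 1.04, but did not pass (adjusted p = 0.139). The share of all genes called lower in this test was 0.167%. The call for V3 was lost on leaving out any library other than ATM 70 Gy replicate 3 (adjusted p = 0.0630 to 0.161, against 0.00190 without that one), and also with a pseudocount of 0.1 (0.0928) or without the filter (0.0678). With ATM 70 Gy replicate 3 left out, RNRS2 passed too (-5.79, adjusted p = 0.0284). Among the irradiated leaves alone, atm-1 lay below ATM for all 3 members, with log2 differences of -5.04 for ST1 (limma adjusted p = 1.12e-05), -2.92 for V3 (adjusted p = 0.00127) and -4.58 for RNRS2 (adjusted p = 0.0162), where 0.33% of all genes were called lower. The RNRS2 call at 70 Gy was lost on leaving out any library but ATM 70 Gy replicate 3 (adjusted p = 0.0555 to 0.113, against 0.00371). Between untreated leaves of both lines the differences were -0.08 for ST1, -0.14 for V3 and 0.44 for RNRS2, with adjusted p-values of 0.865 to 0.976, and limma called 0% of all genes (1330 at an unadjusted p under 0.05).

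Other enzymes that make or process deoxynucleotides were followed as a list of 27 genes matched by description: thymidine kinase, thymidylate synthase, dUTPase, deoxycytidylate deaminase, deoxynucleoside kinases, the nucleoside mono- and diphosphate kinases, and SAMHD1 homologs, which break down deoxynucleoside triphosphates. Of the 22 with enough signal to test, 0 rose and 0 fell in ATM leaves at 70 Gy, with a median log2 difference of -0.35 against -0.05 over all genes. With 0.525% of all genes called in this comparison, 0 calls among 22 do not set the list apart from the rest. The 3 with the largest differences were the UMP-CMP kinase Os02g0778400, which adds a phosphate to pyrimidine monophosphates, the chloroplast uridylate kinase YGL8 and the chloroplast nucleoside diphosphate kinase OsNDPK2. They differed by 1.21, -1.20 and -1.72 (limma adjusted p = 0.151, 0.329 and 0.181). With library weights these 3 were called (limma adjusted p = 0.00495, 0.00419 and 8.2e-05), as were 6033 of the 24582 genes in all. With replicate 1 of the atm-1 control and replicate 3 of irradiated ATM left out, YGL8 (0.0405) and OsNDPK2 (0.00111) were called, among 1656 genes in all. The 3 genes were picked for their size, and calls of the rest of the list under these settings were not counted. In atm-1 leaves at 70 Gy, and in the tests of the difference between the lines, the list likewise had 0 calls among its 22 tested genes. There 0% of all genes were called in atm-1 leaves at 70 Gy and between the untreated lines. The shares were 0.167% for the difference of the responses and 0.33% between the irradiated lines, so 0 calls in a list of this size say little.

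A second list held 60 genes of DNA replication, such as the MCM helicase, the origin recognition complex, replication protein A and the replicative polymerases, and 40 could be tested. In ATM leaves at 70 Gy 1 of them rose, OsPCNA, the sliding clamp that holds DNA polymerase on its template. It stood at 8.29 to 16.6 FPKM untreated and at 68.4 to 148 FPKM irradiated (log2 3.08 ± 0.29, limma adjusted p = 0.000273), and its response in atm-1 differed from that in ATM by -3.01 (adjusted p = 0.0117). The median over the list was -0.07, against -0.05 over all genes, of which 0.431% were called higher. Of 13 tested markers of dividing cells, namely B-type cyclins, B-type cyclin-dependent kinases and KNOLLE, 0 rose and 0 fell. The difference was above 0 for 3 of the 13, with a median of -0.14 against -0.05 over all genes. The summed level of all 22 markers was nevertheless 114 to 154 FPKM in the untreated and 187 to 301 FPKM in the irradiated ATM libraries. Of the 22 markers 7 to 9 were at 0 in the untreated libraries and 8 to 15 in the irradiated ones. CDKB2, a mitotic kinase called in other comparisons below, was not called here. It lay under 1 FPKM in both groups, at 0.325 to 0.621 FPKM untreated and 0.109 FPKM or less in each irradiated ATM library. This 1 marker does not stand for the list. The mesophyll markers had 0 calls among 21 tested.

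**Figure D2:**
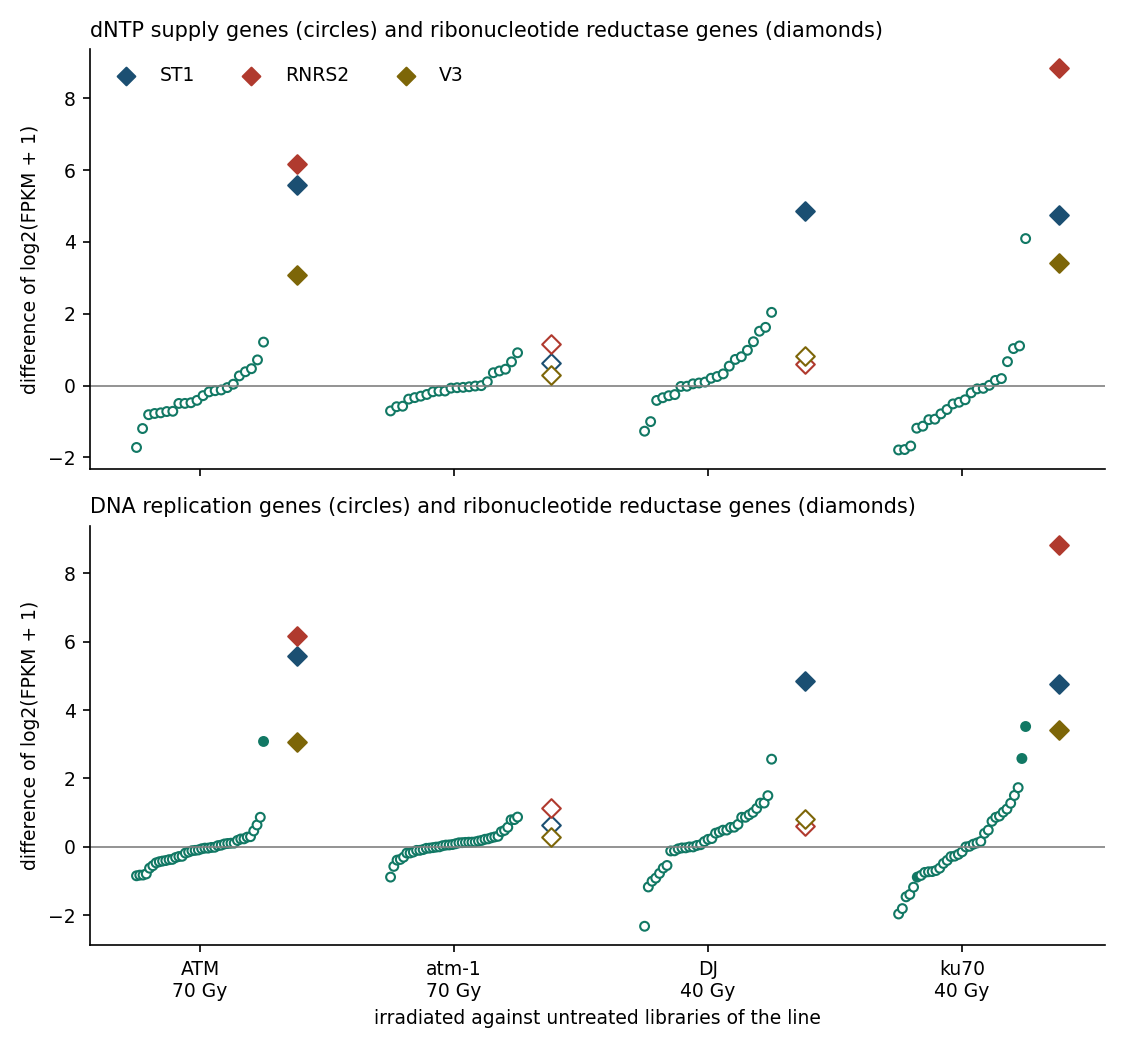
Difference of log2(FPKM + 1) between irradiated and untreated leaves of ATM, atm-1, DJ and the line labelled ku70 for the tested genes of dNTP supply (top) and DNA replication (bottom), drawn as circles in order of size, and for ST1, RNRS2 and V3, drawn as diamonds; filled symbols have a limma adjusted p under 0.05. Of the dNTP supply genes 0 of 22 are filled in each of the 4 comparisons. Of all genes tested 0.525%, 0%, 1.03% and 9.92% were called in them, in the order drawn.

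In atr leaves, with 1 library per condition and so no replicate check, both small subunits were higher after 70 Gy. ST1 went from 9.17 to 106 FPKM (307 and 3735 reads), an 11.5-fold difference. RNRS2 went from 1.41 to 22.4 FPKM (37 and 621 reads), a 15.9-fold difference. V3 went from 4.23 to 7.77 FPKM (228 and 442 reads), a 1.84-fold difference. On the log2(FPKM + 1) scale these were 3.39, 3.28 and 0.75, number 42, 50 and 2622 among the rises of 24582 genes. By this measure 6.22% of all genes were higher and 12.6% lower by 1 or more. Mesophyll markers were lower by 1 or more for 19 of 21 genes in the same pair of libraries, and their part in these differences was not tested. In the order of levels over the set of 20 libraries, irradiated ATM, irradiated atr and irradiated atm-1 leaves were the highest groups for each of the 3 genes. The ranges of irradiated atm-1 overlapped those of an untreated group for RNRS2 and V3 and of none for ST1.

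At 40 Gy ST1 alone was called higher in DJ leaves, and ST1, RNRS2 and V3 in the leaves labelled ku70. A call in 1 line and not in the other is not itself a difference between lines, which was tested directly below. ST1 stood at 3.00 FPKM and was listed at 0 in the DJ controls, and stood at 48.9 and 66.2 FPKM after irradiation. In the libraries labelled ku70 it went from 24.4 and 24.0 FPKM to 697 and 661 FPKM, 28.0-fold in the means. The groups of ST1 did not overlap in either line, and how often this held over all genes was not counted. RNRS2 was listed at 0 in all 4 untreated libraries, and in irradiated DJ leaves it was listed at 0 in one library and at 1.34 FPKM in the other. In the irradiated libraries labelled ku70 it stood at 403 and 515 FPKM, from 10913 and 12594 reads. V3 stood at 0.657 FPKM and was listed at 0 in the DJ controls, and stood at 1.70 and 0.922 FPKM at 40 Gy. In the line labelled ku70 V3 went from 1.36 and 0.518 FPKM to 21.6 and 17.3 FPKM, 20.7-fold in the means. As for ST1, the V3 groups did not overlap in either line.

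In DJ, ST1 rose by 4.86 ± 0.65 on the log2(FPKM + 1) scale (SE, n = 2 and 2, limma adjusted p = 0.0496), number 3 in size of 23063 genes, while RNRS2 differed by 0.61 (adjusted p = 0.688) and V3 by 0.82 (adjusted p = 0.600). The share of all genes called higher was 0.481%, and lower 0.546%. In the libraries labelled ku70 all 3 rose: RNRS2 by 8.83 ± 0.52 (adjusted p = 0.00422), the largest rise of all 23063 genes, ST1 by 4.75 ± 0.65 (adjusted p = 0.0168) and V3 by 3.43 ± 0.48 (adjusted p = 0.0181). There 9.92% of all genes were called, 2.84% higher and 7.08% lower, and the median of all genes was -0.29 (-0.27 after rescaling by median ratios). The RNRS2 values depend on the pseudocount, since the untreated libraries were listed at 0. ST1 in DJ was no longer called without either irradiated library (adjusted p = 0.146 without replicate 1 and 0.125 without replicate 2), and ST1 in the line labelled ku70 was lost without any 1 of its 4 libraries (0.0525 to 0.106), V3 without either control (0.0747 and 0.105). With a pseudocount of 0.1 ST1 was called in neither line (0.160 and 0.133) nor V3 in the line labelled ku70 (0.0937), and ST1 in DJ also missed when libraries were weighted (0.0587) or the filter was dropped (0.0825).

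The difference between the 40 Gy responses was called for RNRS2, which rose more in the line labelled ku70 by 8.22 ± 0.73 (SE, limma adjusted p = 0.0213), where 0.39% of all genes were called higher and 0.763% lower. That call was lost without ku70 control replicate 1 (adjusted p = 0.0533) or replicate 2 (0.0526), and with a pseudocount of 0.1 (0.0696). For V3 the difference was 2.60, with a 95% interval of 0.89 to 4.31 (adjusted p = 0.167). For ST1 it was -0.10, with an interval of -2.41 to 2.20 (adjusted p = 0.992), and its sign turned without DJ control replicate 2 (0.90) and without DJ 40 Gy replicate 2 (0.11). In untreated leaves ST1 was higher in the libraries labelled ku70 than in DJ by 3.66 without being called (adjusted p = 0.157, 0.62% of all genes called, 0.395% higher and 0.225% lower), and it was called on leaving out either DJ control (0.0159 without replicate 1 and 0.0331 without replicate 2). V3 differed by 0.56 (adjusted p = 0.934).

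The lists around the enzyme behaved at 40 Gy as follows. Of 22 tested dNTP supply genes 0 rose and 0 fell in DJ and in the line labelled ku70, with medians of 0.15 and -0.43 against -0.0036 and -0.29 over all genes. The shares of all genes called were 1.03% and 9.92%. Of 35 tested replication genes 0 were called in DJ. In the line labelled ku70 2 rose, OsPCNA (12.8 ± 1.46 to 157 ± 9.52 FPKM, SD, n = 2 and 2, limma adjusted p = 0.00578) and OsORC5, described as subunit 1 of the origin recognition complex (listed at 0 untreated, 4.79 and 5.21 FPKM irradiated, adjusted p = 0.00396). The replication factor C subunit Os10g0574500 stood at 1.12 and 0.598 FPKM untreated, was listed at 0 in both irradiated libraries and was called lower (adjusted p = 0.0340). In the set of 10 OsORC5 reached 1 FPKM only in the libraries labelled ku70 40 Gy and in TOP6A3-OE1. It thus passed the filter through the group in which it was high, so its call is no separate support for a rise. Os10g0574500 reached 1 FPKM only in a library labelled ku70 control and in TOP6A3-OE1, so its fall has a like limit. With 9.92% of all genes called in the line labelled ku70, 2 rises and 1 fall among 35 do not set the list apart. Of 8 tested markers of dividing cells 0 were called in either line. Of 21 tested mesophyll markers 14 fell in the line labelled ku70, summing to 71050 and 72672 FPKM untreated and to 9090 and 11672 FPKM irradiated. In DJ 2 fell and 1 rose. The part of these markers, and of the genes listed at 0 in the libraries labelled ku70 40 Gy, in the members' changes was not tested.

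**Figure D3:**
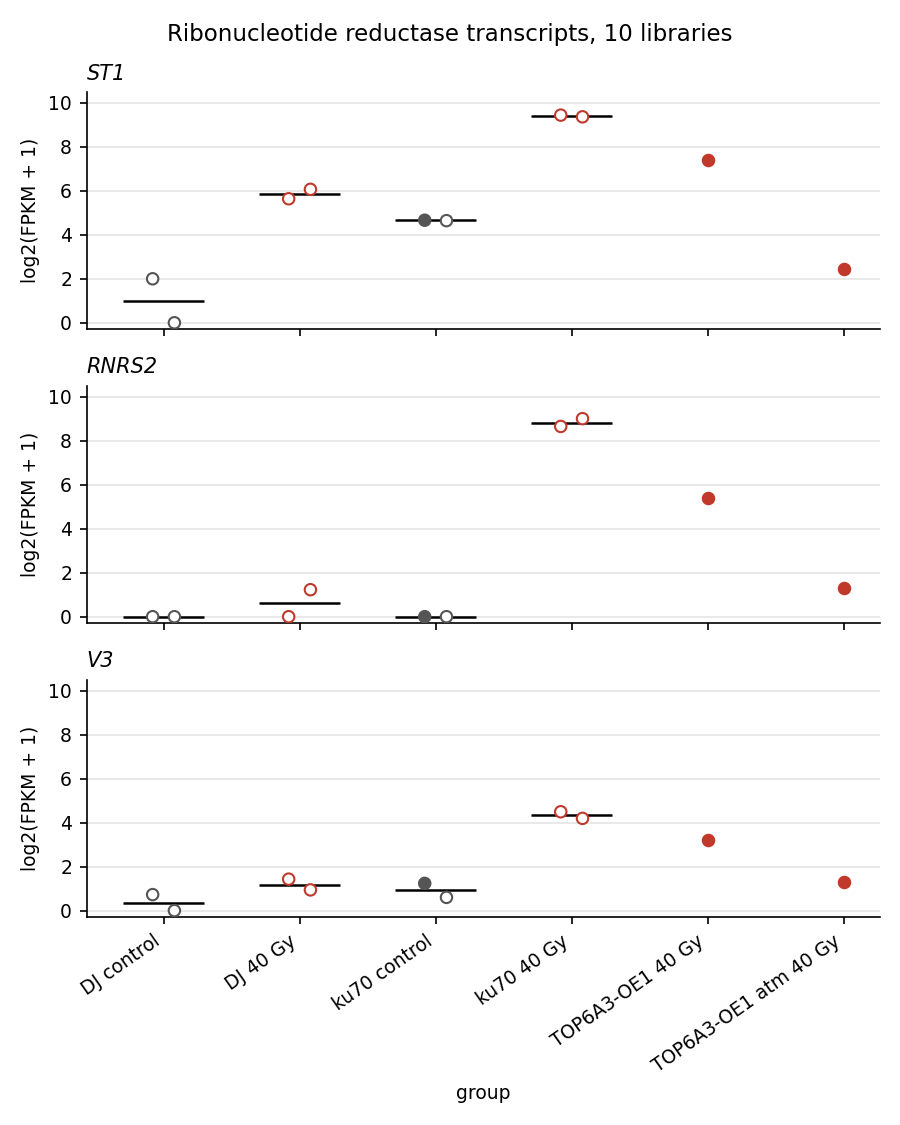
FPKM of ST1, RNRS2 and V3 on a log2(FPKM + 1) axis in 10 libraries by group; each point is 1 library, bars are group means, red is 40 Gy, grey is untreated, and open points are the 7 libraries in which 1.22% to 2.77% of detected genes had 1 to 10 reads. RNRS2 lies at 403 and 515 FPKM in the irradiated libraries labelled ku70 and at 1.34 FPKM or less in the DJ libraries.

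The library labelled TOP6A3-OE1 and that of TOP6A3-OE1 atm, both at 40 Gy and with no untreated partner, gave 1 value each. ST1 stood at 169 FPKM in the first and at 4.51 FPKM in the second (6284 and 135 reads), RNRS2 at 41.4 and 1.49 FPKM (1208 and 35 reads), and V3 at 8.23 and 1.45 FPKM (492 and 70 reads). The line with the atm-2 mutation was thus lower by 37.5-fold for ST1, 27.8-fold for RNRS2 and 5.67-fold for V3. By log2(FPKM + 1) these differences of -4.95, -4.09 and -1.91 were number 18, 50 and 613 among the falls of 23063 genes. Of all these genes 10.4% were lower and 12.8% higher by 1 or more. The dNTP supply list had 4 of 22 genes lower and 2 higher by that measure, with a median of -0.02. Mesophyll markers were higher by 1 or more for 15 of 21 genes in the library with the atm-2 mutation, and their part was not tested. ATM itself was at 3.35 FPKM in the first library and at 5.75 FPKM in the second.

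Between top6a3 and TOP6A3 untreated leaves none of the members was called. RNRS2 stood at 5.42, 6.68 and 3.04 FPKM in top6a3 and at 0.344 FPKM (8 reads) in the library labelled TOP6A3. This difference of 2.12 ± 1.04 (SE, n = 3 and 1) was not called (limma adjusted p = 0.210), in a comparison in which 12.9% of all genes were called, 8.18% higher and 4.7% lower. It passed in a fit that left out replicate 1 of the atm-1 control and replicate 3 of ATM at 70 Gy, which takes their spread out of the shared estimate (adjusted p = 0.00419, 7965 genes called in all). ST1 stood at 10.3, 13.9 and 11.1 FPKM in top6a3 and at 18.7 FPKM in TOP6A3 (-0.64, adjusted p = 0.416), and V3 at 4.10, 3.16 and 3.24 FPKM against 4.18 FPKM (-0.21, adjusted p = 0.832). The lone TOP6A3 library was assumed to vary like the other groups. Markers of dividing cells moved in the same comparison: 4 of 13 tested rose and 1 fell, among them CDKB2 (2.11), the cytokinesis syntaxin KN (2.05) and the cyclin Os12g0630750 (1.95), which all stood above the TOP6A3 library in each top6a3 library. The summed level of the 22 markers was 181 to 220 FPKM in top6a3, with 4 or 5 of them at 0, and 191 FPKM in TOP6A3, with 8 at 0. The licensing factors OsMCM2 (1.46) and OsMCM5 (1.18), subunits of the replicative helicase, rose there too, and Os11g0310100, also described as MCM5, fell (-1.23). KN (2.99 to 3.24 FPKM in top6a3) and OsMCM5 (0.813 to 1.78 FPKM) passed the filter only through the top6a3 libraries. Their calls are thus no separate support for a rise in that group. The list of dNTP supply had 0 calls. Mesophyll markers rose for 10 of 21 genes. The part of these markers in the RNRS2 values was not tested.

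After 24 h at 4 °C ST1 fell in both lines, each with 1 cold library assumed to vary like the other groups. It stood at 1.62 FPKM in cold ATM leaves and at 1.59 FPKM in cold atm-1 leaves, from 28 reads in each, 18.6-fold and 17.9-fold below the means of the untreated leaves. The log2 differences were -3.54 ± 0.47 (SE, limma adjusted p = 0.000461) and -3.48 ± 0.47 (adjusted p = 0.000422), where 6.84% and 6.13% of all genes were called lower and 7.38% and 9.46% higher. V3 stood at 1.87 and 2.58 FPKM, below every other library of its set (-1.07 and -0.61, adjusted p = 0.154 and 0.457). RNRS2 stood at 1.18 FPKM in cold ATM leaves, within the untreated ATM values (-0.23, adjusted p = 0.956). In cold atm-1 leaves it stood at 0.652 FPKM, from 9 reads. This was below the untreated atm-1 libraries, the lowest of which was at 0.821 FPKM (-1.07, adjusted p = 0.576). In the fit without those same libraries V3 was called in the ATM line (adjusted p = 0.0233, 8736 genes called in all).

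Of the dNTP supply list 6 of 22 fell and 0 rose in cold ATM leaves, with a median of -0.92 against -0.03 over all genes. They were thymidine kinase TK (-1.18), the nucleoside diphosphate kinases OsNDPK1 (-2.40) and Os10g0563700 (-2.01), the deoxyguanosine kinase Os05g0430200 (-2.05), the UMP-CMP kinase Os06g0109600 (-2.66) and the organellar guanylate kinase V2 (-2.97), another gene named for virescent leaves. TK was lost in 1 of 3 fits that left out an ATM control (highest adjusted p = 0.0592), and Os05g0430200 and Os06g0109600 were lost in 3 of 3 (highest 0.0757 and 0.0817). In cold atm-1 leaves OsNDPK1 (-2.21) and V2 (-2.44) fell and the UMP-CMP kinase Os02g0778400 rose (1.56), with a median of -0.64 against 0 over all genes. There the call was lost in 2 of 3 fits without an atm-1 control for V2 (highest adjusted p = 0.0840) and in 1 of 3 for Os02g0778400 (0.0672). Of the 40 replication genes tested 1 rose and 1 fell in cold ATM leaves, the single-strand binding subunit OsRPA1 (2.48) and the GINS subunit Os05g0143400 (-1.05). In cold atm-1 leaves 1 rose and 3 fell, among them OsRPA1 (1.93), OsPCNA (-1.47) and OsRPA14 (-1.78). Of the 13 markers of dividing cells 0 were called in cold ATM leaves and CDKB2 rose (1.71) in cold atm-1 leaves. Over all genes tested 14.2% were called in cold ATM leaves and 15.6% in cold atm-1 leaves. Calls among the replication genes and dividing-cell markers were no more frequent than this in either line. The same held for the dNTP supply list in cold atm-1 leaves, so these counts do not set the lists apart. Mesophyll markers fell for 12 of 21 genes in cold ATM leaves and for 9 of 21 in cold atm-1 leaves, and summed to 2705 and 5843 FPKM, against 20297 to 26025 FPKM and 13793 to 22382 FPKM in the untreated leaves of the same lines. Their part in the fall of ST1 was not tested.

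The proportions of the subunit transcripts, set by values per kilobase, also moved. ST1 exceeded V3 by 5.95 ± 1.15-fold in untreated ATM leaves (SD, n = 3), by 29.8 ± 4.62-fold after 70 Gy, and by 6.34 ± 1.40-fold and 8.07 ± 3.11-fold in untreated and irradiated atm-1 leaves. The ratio in irradiated ATM leaves, 25.6 to 34.8, lay above that of every other library of its set, and the cold libraries were the lowest, at 0.867 in ATM and 0.618 in atm-1. In atr it went from 2.17 to 13.6. In the libraries labelled ku70 it was 17.9 and 46.5 untreated and 32.3 and 38.2 irradiated, so the groups overlapped. In DJ it was 4.57 in control replicate 1, with both genes listed at 0 in replicate 2, and 28.8 and 71.8 at 40 Gy. These DJ ratios rested on 25, 92 and 38 reads of V3. At 40 Gy the ratio was 20.6 in TOP6A3-OE1 and 3.11 in TOP6A3-OE1 atm. RNRS2 amounted to 2.69% to 10.7% of the level of ST1 in untreated ATM leaves, to 7.98% to 16.6% at 70 Gy and to 57.7% and 77.9% in the irradiated libraries labelled ku70. It was also high in other libraries, at 72.7% in cold ATM leaves, 40.9% in cold atm-1 leaves, 51.9% in replicate 1 of the atm-1 control (2.98% and 2.46% in the others) and 27.5% to 52.7% in top6a3, against 1.84% in TOP6A3. Irradiated atm-1 leaves lay at 11.0% to 24.7%, atr at 15.3% untreated and 21.2% irradiated, TOP6A3-OE1 at 24.5% and TOP6A3-OE1 atm at 33.0%. RNRS2 amounted to 0% and 2.03% of ST1 in irradiated DJ leaves. These ratios were not tested.

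The remaining members gave almost no signal and could not be tested. RNRL2 and Os02g0804933 were listed at 0 in all 20 libraries of their set, irradiated ATM leaves included. Os02g0804933 was not listed in the set of 10. RNRL2 was above 0 there in 3 of 10 libraries, with 6 reads in ku70 control replicate 1, 9 reads in TOP6A3-OE1 40 Gy and 12 reads, or 0.253 FPKM, in TOP6A3-OE1 atm 40 Gy. The genes overlap on opposite strands, and whether reads were counted by strand is not given in the sources used here, so reads in the overlap could belong to either and these zeros may not show absence of the transcript.

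Over the 20 libraries the levels of ST1 and V3 followed each other with a Pearson's r of 0.953 on the log2(FPKM + 1) scale, and V3 was the gene most like ST1 of 24581 compared. RNRS2 had an r of 0.873 with ST1 and 0.909 with V3. Over the 13 libraries without 70 Gy, r was 0.881 for ST1 with V3 but 0.077 for ST1 with RNRS2 and 0.042 for V3 with RNRS2, and over the 11 untreated ones 0.677, -0.40 and -0.328. The libraries share their group structure and differ in depth, so no p is given. The genes most like V3 were OsRAD54, a motor protein of homologous recombination (r = 0.956), ST1, Os02g0307900, annotated with a transposon domain (0.940), OsPCNA (0.930) and the kinesin-like Os08g0548600 (0.928). After V3, those most like ST1 were Os09g0345000, with a ubiquitin domain (0.939), the cysteine protease Os09g0442300, described as oryzain gamma (0.927), Os03g0242100, described as the checkpoint protein RAD17 (0.918), and the reticulon-like Os02g0302900 (0.916). The genes most like RNRS2 were OsPCNA (0.941), OsGSTU36, a glutathione S-transferase (0.934), OsBRCA1, a repair protein (0.929), the glucosyltransferase Os01g0597800 (0.924) and Os12g0148400, annotated as a proteasome stabiliser (0.917). OsRAD54 and Os08g0548600 reached 1 FPKM only in irradiated ATM leaves (1.99 to 9.60 and 4.02 to 5.54 FPKM). Both thus passed the filter through that group alone, in which V3 was also highest. Their likeness to V3 is no separate support for its rise. OsBRCA1 and Os12g0148400 reached 1 FPKM only in irradiated ATM leaves (2.37 to 3.08 and 2.41 to 5.29 FPKM) and irradiated atr leaves. In the latter they stood at 1.92 and 1.08 FPKM. RNRS2 was highest in these same groups, so their likeness to RNRS2 is no separate support for its rise either.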

How the data were processed

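Per the labels' protocols, leaf RNA was made into libraries with a kit that marks strand. The authors deposited FPKM values per gene and, per the file headers, gene lengths; which aligner, counting tool and genome build were used is not given in the sources used here. FPKM times length was a whole multiple of 1 step per library (100% of values within 0.01), which gave the reads behind each value. All columns were matched to a sample (0 left). Fits used limma 3.58.1 (limma-trend, R 4.3.3) on log2(FPKM + 1), 1 mean per group, keeping genes that reached 1 FPKM in 2 or more libraries (24582 and 23063 genes, 10 and 4 residual degrees of freedom), two-sided p-values with Benjamini-Hochberg adjustment across every gene tested, called under 0.05. Fold changes on this scale understate those of low genes. The script was tested on simulated data. Tables were read with data.table (version 1.17.8) and pandas 2.3.3, numpy 2.4.6 and Python 3.11.15, and plots drawn with matplotlib 3.10.9. No label states that replicates came from separate plants; the p-values thus reflect only library-to-library spread, which may be technical.

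The members, lists and comparisons were chosen with earlier results of these data known. Lists came from gene descriptions, with matches dropped where the description showed another protein. Beside the members, the text names each called dNTP supply gene, the 3 with the largest difference in ATM at 70 Gy, up to 3 called genes of the replication and dividing-cell lists per comparison, and the 5 genes most like each tested member; genes of the line labels were added after their values were seen. Other settings were a pseudocount of 0.1, no filter, median-ratio scaling, library weights, a replicate block, and libraries left out. Protein and promoter sequences were not analysed here.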

Additional observations from a re-analysis of the deposited data

Results flagged for a closer look

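The responses of lines to the same dose differed by a direct test for 3 results. The 70 Gy response in atm-1 was smaller than in ATM for ST1 (-4.95 on the log2 scale, limma adjusted p = 0.000663), which passed in 12 of 12 fits that left out 1 library. It was smaller for V3 (-2.78, adjusted p = 0.0482), which passed in 1 of 12. The 40 Gy response in the line labelled ku70 was larger than in DJ for RNRS2 (8.22, adjusted p = 0.0213), which passed in 6 of 8. The values behind them stand in each library as given above.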

How the results depend on the processing

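The 70 Gy rises of ST1, RNRS2 and V3 in ATM, the ST1 falls in the cold and the RNRS2 rise in the line labelled ku70 were called under every setting run, and median-ratio scaling changed no member's call or direction. Other results moved as follows, in log2 differences with limma adjusted p; the cause was not tested. With a pseudocount of 0.1 the difference of the 70 Gy responses had 14 genes called and V3 at -2.94 (0.0928), RNRS2 between the irradiated lines was -4.76 (0.0655), and at 40 Gy ST1 in DJ was 6.68 (0.160), ST1 and V3 in the line labelled ku70 4.80 (0.133) and 4.36 (0.0937), and the RNRS2 difference of responses 10.2 (0.0696). The counts were 416 for DJ, 741 for the difference of the 40 Gy responses and 272 for ku70 against DJ controls. Without a filter V3 missed in the difference of the 70 Gy responses (-2.78, 0.0678) and ST1 in DJ (4.86, 0.0825).

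With library weights the counts were 6033 (ATM 70 Gy), 2649 (atm-1 70 Gy), 1252 (their difference), 4 (untreated atm-1 against ATM), 3150 (the same at 70 Gy), 11438 (top6a3), 11781 and 12077 (cold ATM and atm-1), 150 (DJ 40 Gy) and 142 (difference of the 40 Gy responses). ST1 and RNRS2 were then called in atm-1 at 70 Gy (0.62 and 2.02), RNRS2 in the difference of responses (-5.09, 3.86e-05), ST1 and RNRS2 in top6a3 (-0.66 and 1.90) and V3 in cold ATM leaves (-1.06, 0.00554), while ST1 in DJ was not (4.86, 0.0587) and RNRS2 in untreated atm-1 changed sign (-0.27).

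With both libraries of few low-read genes left out, the counts were 1656 (ATM 70 Gy), 12 (atm-1 70 Gy), 98 (their difference), 203 (atm-1 against ATM at 70 Gy), 7965 (top6a3), 8736 and 8288 (cold ATM and atm-1). RNRS2 was called in the difference of responses (-4.89, 0.00115) and in top6a3 (2.12, 0.00419), V3 was called in cold ATM leaves (-1.07, 0.0233), and untreated atm-1 against ATM changed sign for ST1 (0.10) and RNRS2 (-0.46).

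Replicate numbers did not pair the libraries: same-numbered libraries correlated at -0.365 to 0.226 over 12 pairs in the set of 20, where 2 correlated best with their own number, and at -0.074 to 0.012 over 4 pairs of groups in the set of 10, where the numbers of 3 correlated better matched than crossed (with 2 libraries a group both numbers give the same value). With the replicate number as a block, among only the groups compared, the counts were 46 (ATM 70 Gy), 0 (difference of the 70 Gy responses), 36 (atm-1 against ATM at 70 Gy), 1 (DJ 40 Gy), 0 (difference of the 40 Gy responses) and 3 (ku70 against DJ controls). ST1 (-4.95, 0.0589) and V3 (-2.78, 0.196) in the difference of the 70 Gy responses, ST1 in DJ (4.86, 0.144) and RNRS2 in the difference of the 40 Gy responses (8.22, 0.119) were not called under the block.

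With 1 library left out at a time, counts ranged from 67 to 156 (ATM 70 Gy), 0 to 1 (atm-1 70 Gy), 16 to 60 (their difference), 0 to 2 (untreated atm-1 against ATM), 54 to 98 (the same at 70 Gy), 2474 to 2695 (top6a3), 2527 to 2683 and 3485 to 6108 (cold ATM and atm-1), 213 to 284 (DJ 40 Gy), 443 to 2037 (ku70 40 Gy), 249 to 420 (difference of the 40 Gy responses) and 182 to 241 (ku70 against DJ controls). Members ranged from -3.20 to -2.44 (V3) and -5.79 to -4.13 (RNRS2) in the difference of the 70 Gy responses, -5.34 to -4.18 (RNRS2, irradiated lines), 3.86 to 5.86 (ST1, DJ), 4.71 to 4.79 (ST1, ku70), 3.11 to 3.74 (V3, ku70), 7.61 to 8.83 (RNRS2, difference of the 40 Gy responses) and 2.66 to 4.66 (ST1, ku70 against DJ controls). Signs turned within -0.28 to 0.11 (ST1, untreated atm-1 against ATM), -0.46 to 0.91 (RNRS2, the same), -0.39 to 0.029 (RNRS2, cold ATM) and -1.10 to 0.90 (ST1, difference of the 40 Gy responses). Values near 1 FPKM, as RNRS2 in untreated leaves, rest on few reads.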
